A study of Glycyrrhiza uralensis with 30 samples.

Results

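The shoots of licorice seedlings (*Glycyrrhiza uralensis*, a legume grown for its sweet roots) were compared after 2 h of simulated drought and before it. The comparison rests on 6 of the 30 libraries of the series, chosen by their sample descriptions: the 3 libraries of aboveground parts (stems and leaves) at 2 h, numbered 1, 2 and 3 in their titles, and the 3 aboveground control libraries, numbered 31, 32 and 33. The treated seedlings stood in MS nutrient solution with 100 g/L of polyethylene glycol 6000 (PEG), which holds water in the medium and makes it harder for roots to draw on. The controls are the 0 h samples, and their treatment is labelled distilled water. All seedlings are labelled as 60 days old, the protocol speaks of 1 week of hydroponic growth, and no genotype or line is given. No untreated shoots at 2 h are among the labels, and the labels give no time of day of harvest, so effects of PEG, of the medium, of elapsed time and of the hour of day cannot be told apart. Whether replicate libraries stem from different plants is not said in the labels, and the p-values below measure the spread between these libraries, which may be technical.

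When water becomes hard to take up, the signal starts at the root and reaches the shoot as hydraulic and chemical cues. Abscisic acid, the main drought hormone of plants, closes the stomata and switches on genes for protective proteins and compatible solutes, while genes of growth and photosynthesis are often turned down. The early phase of such a response is known in other plants for fast and large changes of transcription factors and stress proteins. The deposited tables give gene identifiers without names, so the genes below are described by level, by the part of the plant that expresses them and by their behaviour in other libraries, and 4 of them are given by identifier.

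Levels are TPM, the abundance of a gene's transcripts per unit of length, scaled by the authors within each library. Over the listed genes it summed to 952700 to 956204 in the controls and 965687 to 972586 at 2 h. The scaling removes the read number, and how deeply a library was sequenced is unknown here. The tables list 34445 genes. At least 1 TPM was reached by 19541 to 20813 genes at 2 h and by 20587 to 21486 in control. The top 10 genes of a library took up 6.17% to 6.87% of its TPM at 2 h and 6.50% to 8.05% in control. Across the tested genes, the log2 levels of 2 libraries correlated with r of 0.869 to 0.903 among the controls, 0.885 to 0.910 among the 2 h libraries and 0.793 to 0.861 between the groups. Control library 32 was the control closest to all 3 libraries of 2 h. The spread of the groups was alike, with a median SD over genes of 0.38 on the log2(TPM + 1) scale in each.

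The labelled part of the plant was checked with genes biased to shoots or to roots. These were set from the 6 shoot and 6 root libraries of 6 h and 12 h, outside the 2 h comparison, as genes with a difference of at least 3 in mean log2(TPM + 1): 1084 shoot-biased and 654 root-biased genes. Shoot-biased genes held 19.98%, 27.3% and 25.8% of the summed TPM in treated libraries 1, 2 and 3, compared with 34.4%, 34.6% and 29.1% in control libraries 31, 32 and 33. In the root libraries of 2 h and 0 h they held 0.524% to 1.10%. Root-biased genes held 0.433% to 1.75% of the summed TPM in the 6 shoot libraries and 15.1% to 20.1% in those root libraries.

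After 2 h, 1167 genes of the shoot were higher than in control and 1290 were lower, among 23541 genes tested with limma, a linear model that shares the spread across genes (threshold of 0.05 on the Benjamini-Hochberg adjusted p). These are 4.96% and 5.48% of the tested genes, 10.4% together. Rises reached further than falls on the log2(TPM + 1) scale. The control level of a gene limits its fall on that scale but not its rise. Counts of large changes are thus partly set by the scale. At least 2-fold changes were seen in 963 risers and 1052 fallers (4.09% and 4.47%), and at least 4-fold changes in 389 and 275 (1.65% and 1.17%). A change of at least 8-fold was met by 173 and 65 genes (0.735% and 0.276%), of at least 16-fold by 87 and 16 (0.37% and 0.068%), and of at least 32-fold by 48 and 7 (0.204% and 0.0297%). The median change was 1.58 among the risers and -1.40 among the fallers on the log2(TPM + 1) scale, which understates the change of genes of low level. In bulk tissue, fewer cells of a type and less RNA per cell cannot be told apart.

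**Figure D1:**
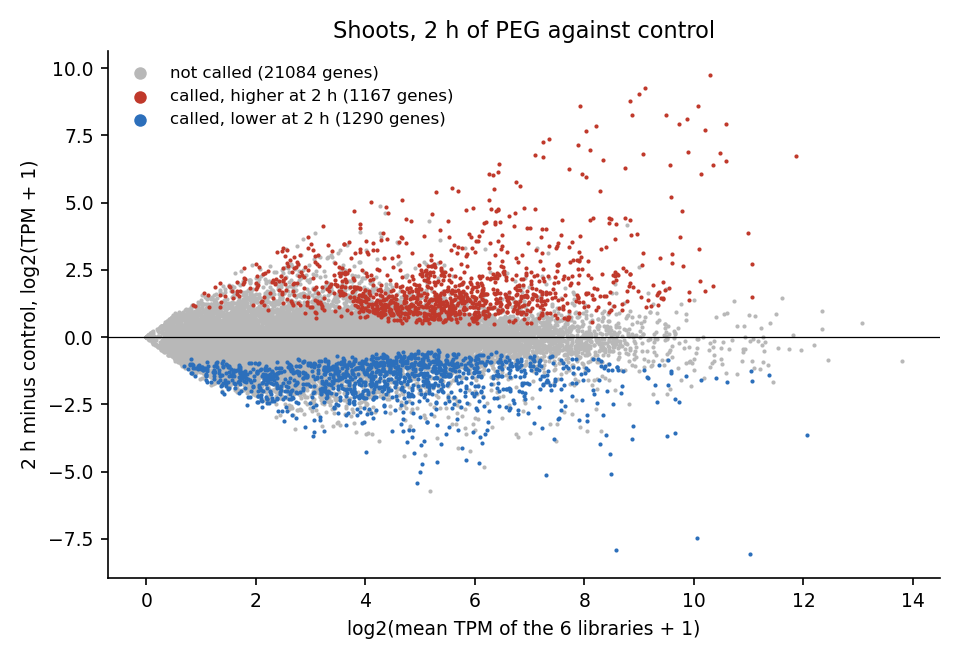
Each point is 1 of the 23541 tested genes, with its mean level in the 6 libraries on the x axis (log2 of mean TPM plus 1) and its difference between 2 h and control on the y axis (log2(TPM + 1)). The 1167 genes called higher are red and reach differences above 7.5, and the 1290 called lower are blue and mostly stay above -5.

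The balance of rises and falls depended on the scaling, and the size of the lists on 3 libraries. The median difference of all tested genes was -0.15 on the log2(TPM + 1) scale. After rescaling the libraries by median ratios it was -0.028, with 1521 genes higher and 1020 lower, so that 59.9% of the calls were rises in place of 47.5%. Leaving out control library 31 left 698 risers and 581 fallers, and leaving out treated library 3 left 770 and 592. The fit that lacked control library 33 had 812 fallers.

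Of the 1167 risers, 1160 had all 3 libraries of 2 h above all 3 controls, and 1282 of the 1290 fallers had all 3 below. Such a lack of overlap was met by 11.4% of all tested genes in the upward and 17.4% in the downward direction. Large differences were not always called: of 1085 tested genes with a difference of at least 4-fold in either direction, 421 did not pass the test, 147 of them higher and 274 lower at 2 h. In the other direction, 6843 tested genes (29.1%) had a 95% interval of their difference that lay within 2-fold. Among the 12972 tested genes that averaged 10 TPM or more in the shoots of 6 h and 12 h, these were 5524 (42.6%).

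The gene with the largest rise on the log2(TPM + 1) scale, among called genes with no overlap and at least 1 TPM in every control, was Glyur002157s00034198. Its level was 3.74, 3.60 and 5.35 TPM in control libraries 31, 32 and 33 and 3357, 1356 and 1703 TPM in libraries 1, 2 and 3 of 2 h. All libraries of 2 h stood far above all controls. The means were 4.23 ± 0.97 TPM and 2139 ± 1069 TPM (SD, n = 3), and the log2 change was 8.58 (SE 0.50, limma adjusted p = 4.435e-07). In the shoots of 6 h it was at 2.57, 0 and 0.98 TPM, in those of 12 h at 0.31, 2.87 and 1.0 TPM, and in those of 24 h at 388.5, 191.6 and 251.5 TPM. The gene was thus below every control in all 6 libraries labelled 6 h and 12 h and above every control in all 3 labelled 24 h. In the fit of all 15 shoot libraries its level at 24 h exceeded the mean of 6 h and 12 h by 7.03 on the log2 scale (SE 0.43, limma adjusted p = 2.44e-07).

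The gene with the largest gain in TPM was Glyur000476s00022369, which became one of the most abundant transcripts of the shoot. It was at 151.1, 24.8 and 57.8 TPM in control libraries 31, 32 and 33 and at 10555, 8321 and 3208 TPM in libraries 1, 2 and 3 of 2 h. The groups did not overlap, and library 3 stood lowest among those of 2 h. Its mean went from 77.9 ± 65.5 TPM to 7361 ± 3766 TPM (SD, n = 3), a log2 change of 6.74 (SE 0.92, limma adjusted p = 4.666e-04). Its levels of 884.5, 208.5 and 287.5 TPM at 6 h were still above every control, those of 2.11, 48.9 and 11.4 TPM at 12 h were not, and those at 24 h were 650.9, 286.0 and 302.5 TPM. The 24 h level passed the test against the mean of 6 h and 12 h narrowly (log2 difference 2.49, SE 0.80, limma adjusted p = 0.04035). That call was lost under 9 of 16 other settings, with adjusted p between 0.009443 and 0.1399, among them without library 5 (0.07646) or 6 (0.07507) of 6 h, 7 (0.06339) or 9 (0.06609) of 12 h, and 10 (0.1399), 11 (0.08479) or 12 (0.07082) of 24 h.

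Among the fallers, Glyur000742s00025064 had the largest fall on the log2(TPM + 1) scale. Its levels were 2376, 7900 and 2182 TPM in control libraries 31, 32 and 33 and 10.4, 33.9 and 4.42 TPM in libraries 1, 2 and 3 of 2 h. An abundant transcript of the control shoot was thus strongly reduced in every library of 2 h. The log2 change was -8.06 (SE 0.72, limma adjusted p = 1.687e-05). In the libraries outside the comparison it was high at 6 h and 12 h, from 760.7 to 11347 TPM, and at 0.27, 0.72 and 0.83 TPM at 24 h, a log2 difference of -11.10 (SE 0.63, limma adjusted p = 1.281e-07).

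The largest loss in TPM was that of Glyur001069s00022473. It was at 7019, 8848 and 7826 TPM in control libraries 31, 32 and 33, and at 885.4, 502.9 and 549.9 TPM in libraries 1, 2 and 3 of 2 h. The replicates lay close together in both groups, with means of 7898 ± 916 TPM and 646 ± 209 TPM (SD, n = 3). The log2 change was -3.65 (SE 0.37, limma adjusted p = 4.981e-05). It was at 4536 to 12013 TPM in the 6 shoot libraries of 6 h and 12 h and at 189.5 to 397.2 TPM at 24 h, with a log2 difference of -4.61 between these (SE 0.32, limma adjusted p = 7.548e-07).

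**Figure D2:**
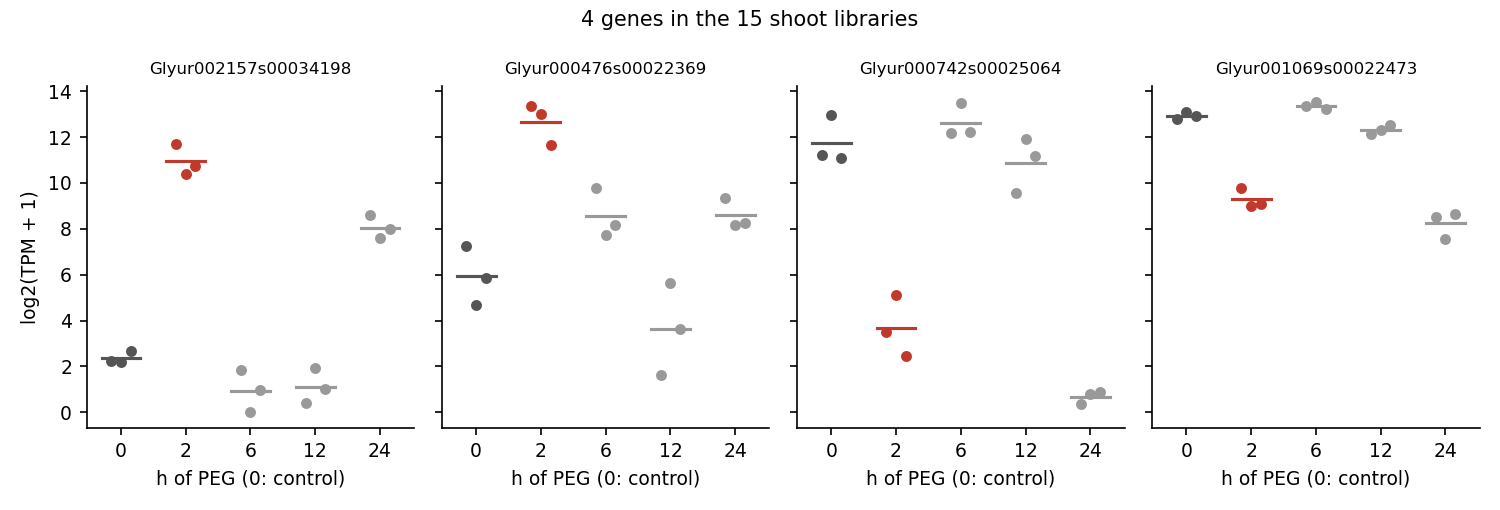
Levels of the 4 genes in the 15 shoot libraries, as log2(TPM + 1) on the y axis against the hours of PEG on the x axis, with 0 for control; each point is a library and each bar the mean of 3. The genes that rose at 2 h (the 2 panels on the left) and those that fell (the 2 on the right) lie nearer to control at 12 h and move again in the same direction at 24 h.

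The called genes made up a large part of the transcript pool. Together the 1167 risers held 4.25%, 5.46% and 4.72% of the summed TPM in control libraries 31, 32 and 33 and 23.4%, 22.7% and 21.1% in libraries 1, 2 and 3 of 2 h. The 1290 fallers held 13.5%, 14.2% and 12.0% in the controls and 3.63%, 4.47% and 3.55% at 2 h. These genes were chosen on these 6 libraries, so the shares describe the lists and are not tested. The 62 risers with the largest gains made up 50% of the 171024 TPM gained, and the 41 fallers with the largest losses 50% of the 88652 TPM lost. Of the 100 most abundant genes at 2 h, 38 were called higher and 3 lower than in control, and of the 100 most abundant in control, 20 were called lower and 1 higher. Among all tested genes 4.96% were called higher and 5.48% lower. The levels that the call compares picked these sets, so risers in the first and fallers in the second are favoured in advance. The 2 sets of 100 shared 57 genes.

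In libraries that the comparison did not use, the same genes had distinct levels. The risers held 4.802% to 5.95% of the summed TPM in the 3 shoot libraries of 6 h and 3.46% to 4.21% in those of 12 h, which is close to or below their share in the controls, and 13.2% to 17.0% in those of 24 h. At 6 h the fallers held 12.97% to 17.5%, at 12 h 12.3% to 13.8%, and at 24 h 3.88% to 5.70%. For both lists, the 3 libraries of 24 h did not overlap with the 6 libraries of 6 h and 12 h. The shares at 2 h and 24 h thus lay on one side and those at 0, 6 and 12 h on the other, and whether the labelled hours are right or the hour of day had a part in this was not tested. The median riser was at 16.3 to 20.1 TPM in the controls, 60.9 to 63.0 TPM at 2 h, 13.5 to 21.96 TPM at 6 h and 12 h, and 44.4 to 52.0 TPM at 24 h. The median faller was at 27.6 to 30.2 TPM in the controls, 7.99 to 10.2 TPM at 2 h, 26.0 to 30.3 TPM at 6 h and 12 h, and 6.80 to 10.5 TPM at 24 h.

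**Figure D3:**
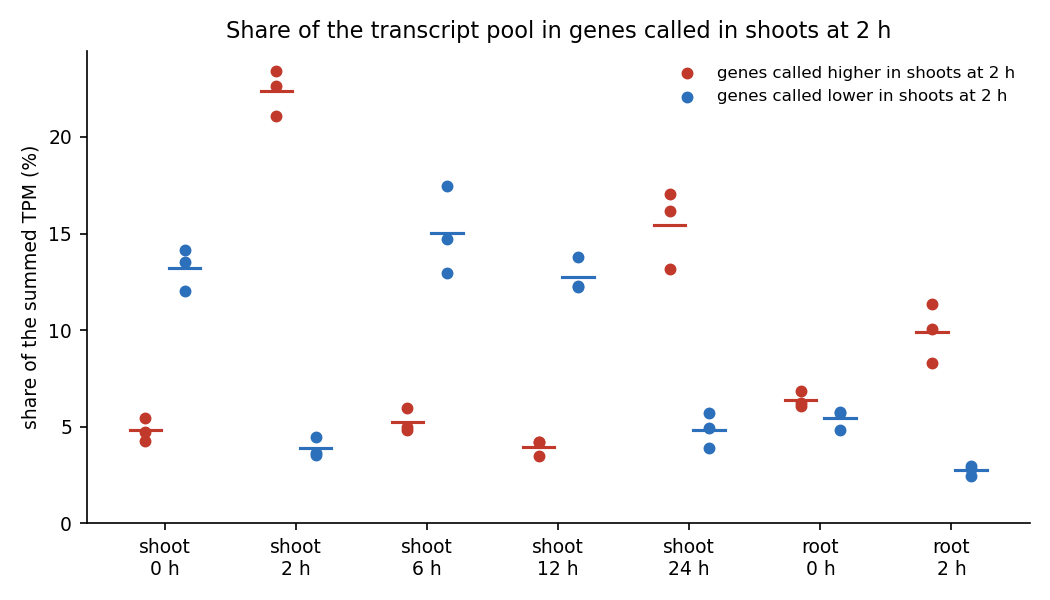
Share of the summed TPM (y axis, percent) held by the genes called higher (red) and lower (blue) in shoots at 2 h, in shoot libraries of 0 to 24 h and root libraries of 0 h and 2 h (x axis); points are libraries and bars means of 3. The red shares of 21.1% to 23.4% at 2 h in shoots fall to 3.46% to 5.95% at 6 h and 12 h and stand at 13.2% to 17.0% at 24 h, and the blue shares run the opposite way.

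The levels at 24 h were then tested gene by gene against the mean of 6 h and 12 h. The means in this contrast share no library with 2 h against control, but both contrasts came from the 15-library fit, with its filter and its estimate of the spread. The contrast itself was chosen with earlier results of these data known, so the counts are a description. Of the 1167 genes that rose at 2 h, 791 (67.8%) were higher at 24 h and 9 were lower, where 7.92% of all tested genes were called higher. Of the 1290 that fell at 2 h, 956 (74.1%) were lower at 24 h and 1 was higher, where 13.9% of all tested genes were called lower. Among genes not called at 2 h, 5.09% were higher and 10.9% lower. The median 24 h difference was 1.28 for the risers and -1.29 for the fallers on the log2(TPM + 1) scale, beside -0.19 for genes not called at 2 h.

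The genes with the largest changes at 2 h also stood apart at 24 h. The 173 genes that rose at least 8-fold had a median change of 4.03 at 2 h and a median difference of 2.76 at 24 h. Of these, 139 (80.3%) were called higher and 1 lower, beside 67.8% of all risers and 7.92% of all tested genes called higher. The 65 that fell at least 8-fold had medians of -3.55 and -3.47. Here 46 (70.8%) were called lower and 0 higher, beside 74.1% of all fallers and 13.9% of all tested genes called lower. The values at 2 h chose both sets of genes and those at 24 h did not, but the 24 h contrast was chosen with earlier results known. Over all 23541 tested genes the 2 differences correlated with r = 0.631, a description across genes, which are not independent replicates.

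The counts were repeated with fits that have no library in common. With the 6 libraries of the 2 h comparison alone, 764 genes rose and 679 fell. Of the 750 of these risers that could be tested in the other 9 libraries, 517 were higher at 24 h and 4 lower, and of 675 such fallers 495 were lower and 0 higher. In that fit of 9 libraries 7.55% of 22485 tested genes were called higher and 12.1% lower. In the 15-library fit, the 791 fell to 515 when control library 31 was left out. The 956 fell to 505 in that case and to 480 when treated library 3 was left out, with fewer genes called at 2 h in both cases. The 9 exceptions among the risers became 4 to 18 and the 1 among the fallers 0 to 3 over all 15 libraries left out in turn.

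**Figure D4:**
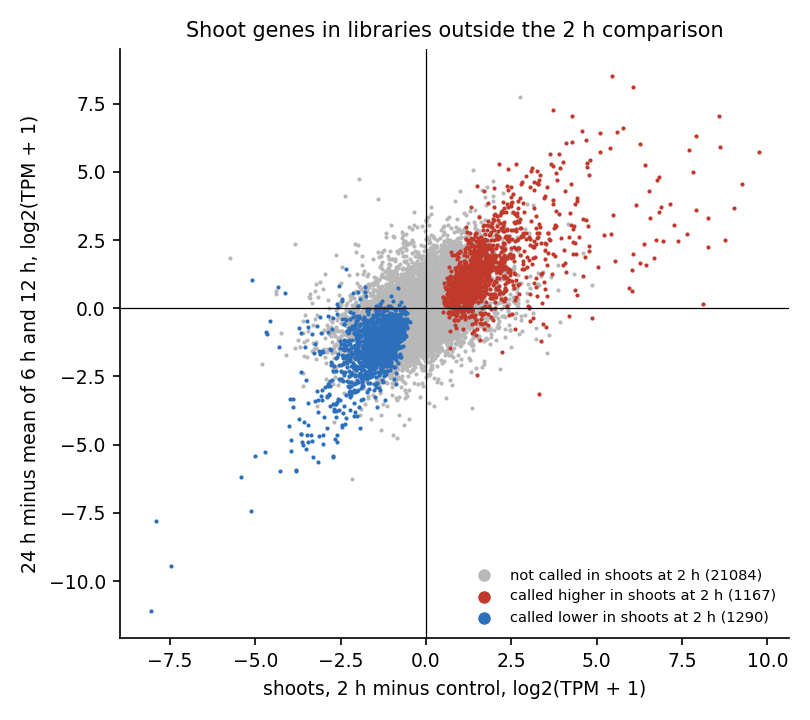
Each point is a tested shoot gene, with its 2 h change on the x axis and the level at 24 h minus the mean of 6 h and 12 h on the y axis, both in log2(TPM + 1). Most of the 1167 red points (called higher at 2 h) lie above 0 on the y axis and most of the 1290 blue points (called lower) below it, with r = 0.631 over all points.

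The calls were also counted by level. Genes were put into classes by their mean TPM in the shoots of 6 h and 12 h, which are not part of the comparison. Of 1673 tested genes under 1 TPM there, 82 rose (4.90%) and 9 fell (0.538%). A gene of that class could pass the filter on low values through the libraries of 2 h in which it was high, so this split is no result about the class. Without the filter 89 rose and 34 fell in it, and with a filter of 5 TPM 42 and 0. Of 1624 genes of at least 100 TPM, 101 rose (6.22%) and 239 fell (14.7%), with all tested genes at 4.96% and 5.48%. At 6 h and 12 h the called genes lay on the side of the controls, so a class of high level there favours falls at 2 h. The precision differs too, with a median SE of 0.49 in the lowest class and 0.31 in the highest. Rises of at least 8-fold were met by 35 of the 1673 genes under 1 TPM and 70 of the 8896 genes of 1 to 10 TPM. They were met by 61 of the 11348 genes of 10 to 100 TPM and 7 of the 1624 above. Falls of that size numbered 0, 3, 32 and 30 in the same classes. Such rises were seen in 0.735% and such falls in 0.276% of all tested genes. On the log2(TPM + 1) scale a gene of low level can hardly fall that far, while its rise has no such limit. The few large falls in the lower classes are therefore no result about them.

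Single libraries moved these class counts. In the highest class, 54 genes rose and 136 fell when control library 31 was left out, and 62 rose and 140 fell when treated library 3 was. Leaving out control library 33 gave 65 rises in that class. With median-ratio rescaling 146 fell. The 9 falls of the lowest class were 5, 3 and 4 when treated library 1, 2 or 3 was missing, and 4 and 27 when control library 31 or 32 was.

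A small group was listed at 0 in one state. In all, 26 genes were listed at 0 in all 3 controls and had at least 1 TPM in every library of 2 h, and limma called 17 of them higher. Their mean levels at 2 h had a median of 10.2 TPM and reached 913.2 TPM. The reverse was seen for 17 genes, of which 8 were called lower, with control means of median 3.22 TPM and at most 71.0 TPM. Both groups were chosen on the libraries that limma compared, so calls in these directions are favoured in advance and are no test. Among all tested genes 4.96% were called higher and 5.48% lower. No fold is given for either group. Of the 26 genes, 6 had at least 1 TPM in all 3 shoot libraries of 24 h and 3 were listed at 0 in all 6 libraries of 6 h and 12 h. Of the 17, 4 were listed at 0 in all 3 libraries of 24 h and 1 had at least 1 TPM in all 6 libraries of 6 h and 12 h.

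Shoot-biased genes were more often lower than higher at 2 h. They were set by high shoot levels at 6 h and 12 h, where the called genes lay on the side of the controls. That choice favours genes that were lower at 2 h, so the counts are a description. All 1084 were tested, 243 fell (22.4%) and 70 rose (6.46%), beside 5.48% and 4.96% of all tested genes, and their median log2 difference was -0.56 against -0.15 for all. After median-ratio rescaling 158 fell (14.6%, with 4.35% of all tested genes). Leaving out control library 31 turned the 243 into 142 and the 70 into 39, and leaving out treated library 3 turned them into 152 and 39. The 70 rises were 44 when treated library 2 or control library 33 was left out.

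Of 654 root-biased genes, 535 had passed the filter on low values, 32 rose (5.98%) and 4 fell (0.748%), beside 4.96% and 5.48% of all tested genes. A root-biased gene could pass the filter through the shoot libraries of 2 h in which it was high. Genes of low level also have little room to fall on the log2(TPM + 1) scale, so this split is no result about the group. Without the filter 30 rose and 4 fell. With quantile normalization 57 root-biased genes rose (of 1458 risers in all), and with library weights 53 (of 1627). The summed level of the 654 genes was higher in every library of 2 h: 1.75%, 1.54% and 1.39% of the summed TPM in libraries 1, 2 and 3 and 0.528%, 0.433% and 0.904% in control libraries 31, 32 and 33. The 32 called genes, chosen on these libraries, held 0.605% to 0.970% at 2 h and 0.0441% to 0.0936% in control. Without these 32 the root-biased genes held 0.779%, 0.616% and 0.784% in libraries 1, 2 and 3 of 2 h. In control libraries 31, 32 and 33 the same genes held 0.484%, 0.339% and 0.842%, so the groups overlapped. Leaving out all root-biased genes left 1135 genes higher and 1286 lower. Root tissue in the shoot samples as a part of these values was not tested. The 32 rises were 14 when control library 31 was left out and 15 when treated library 3 was. The 4 falls were 1 when treated library 3 or control library 33 was left out.

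Next, the shoot response was set against that of the roots of the same series, which stood in the medium themselves. Of the 1090 shoot risers that were tested in roots, 251 rose there too (23.0%) and 46 fell (4.22%), beside 6.01% and 8.03% of all genes tested in roots. Of the 1185 shoot fallers tested in roots, 242 fell there (20.4%) and 21 rose (1.77%). The median root change was 0.31 for the shoot risers, -0.40 for the shoot fallers and -0.13 for the genes not called in shoots. In shoots the medians of the same risers and fallers were 1.55 and -1.36. The shoot change chose these lists, so smaller changes in roots are favoured in advance. In the transcript pool of roots the shoot risers went from 6.05% to 6.84% in the 3 controls to 8.32% to 11.3% at 2 h, and the shoot fallers from 4.83% to 5.75% to 2.45% to 2.97%. Shoot and root libraries of the same number deviated together from their groups, so the root libraries are not independent of the shoot libraries. Leaving out treated library 3 of the shoots turned the 242 into 131, control library 31 of the shoots into 147, and treated library 3 of the roots into 159.

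The difference between the responses was then tested directly, as the shoot change minus the root change over all 30 libraries. It passed limma's test for 1950 of 25420 genes (7.67%), with a positive difference for 1020 (4.01%) and a negative one for 930 (3.66%). Of the 1167 shoot risers, 514 (44.0%) had a larger change in shoots and 6 a larger change in roots, and of the 1290 fallers, 385 (29.8%) fell further in shoots than in roots and 2 the reverse. Since the shoot change chose these genes, a larger change in shoots is favoured and is given as a description. Among the 251 genes that rose in both parts the difference was called for 54, with the larger rise in shoots for 48. Among the 242 that fell in both it was called for 15, with the larger fall in shoots for 13. All 46 genes that rose in shoots and fell in roots, and all 21 with the reverse, passed the test of the difference. Opposite calls in the same libraries chose these genes, so passing was favoured in advance and is no test. Without control library 31 of the shoots the 1950 became 1204. Libraries of the same number were not paired in this test, and with the library number as a block 2261 genes passed.

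**Figure D5:**
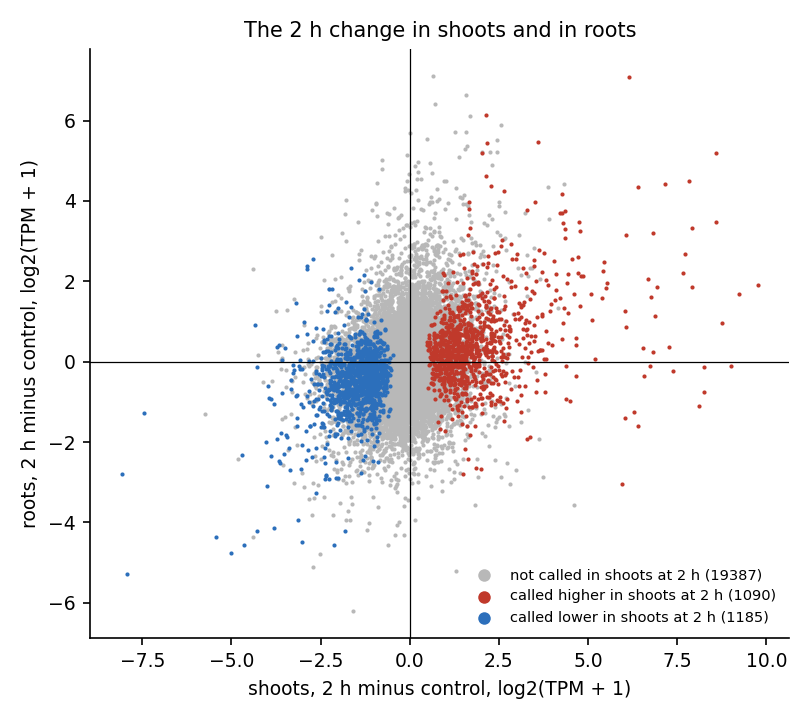
Each point is a gene tested in both parts, with its change from control to 2 h in shoots on the x axis and in roots on the y axis, both in log2(TPM + 1). The 1090 red points (called higher in shoots) have a median of 0.31 on the root axis and the 1185 blue points (called lower) a median of -0.40. The shoot change chose the coloured genes, so values nearer to 0 on the root axis are favoured in advance.

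The 4 genes given above differed in this respect. Glyur002157s00034198 was at 204.6, 108.2 and 46.8 TPM in root control libraries 31, 32 and 33 and at 1696, 595.1 and 1462 TPM in root libraries 1, 2 and 3 of 2 h, and so rose in both parts without overlap. Its root change was 3.48 (SE 0.53, limma adjusted p = 0.001109), and the shoot change exceeded it by 5.10 (SE 0.76, limma adjusted p = 1.757e-04). Control roots had more of this transcript than control shoots.

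Glyur000476s00022369 was at 511.1, 98.2 and 1061 TPM in the root controls and at 705.9, 75.5 and 802.2 TPM in roots at 2 h, groups that overlap. The root difference of -0.10 (SE 0.92, limma adjusted p = 0.958) did not pass the test, and the shoot change exceeded the root change by 6.85 (SE 1.37, limma adjusted p = 0.00312). For this gene the rise at 2 h was thus measured in the shoots, and in the roots its level spread over a wide range in both states.

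Glyur000742s00025064 was at 171.3, 248.1 and 400.5 TPM in the root controls and at 57.1, 83.6 and 9.54 TPM in roots at 2 h. It fell in roots by 2.79 on the log2 scale (SE 0.74, limma adjusted p = 0.02477) and fell further in shoots, with a difference of -5.27 (SE 1.09, limma adjusted p = 0.003859). The root call was lost with only the 6 root libraries compared (0.07349), without root library 3 of 2 h (0.08618) and without root control library 32 (0.05944) or 33 (0.08114); over 14 settings its adjusted p ran from 0.01133 to 0.08618.

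Glyur001069s00022473 was at 11814, 12983 and 10936 TPM in the root controls and at 2216, 2556 and 1550 TPM in roots at 2 h, a log2 change of -2.53 (SE 0.36, limma adjusted p = 7.411e-04). The shoot fall exceeded it by a log2 difference of -1.12 (SE 0.51), which did not pass the test (limma adjusted p = 0.1998). With quantile normalization the difference was -2.003 and passed (adjusted p = 0.02543, with 0.02543 to 0.4991 over 20 settings).

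Finally, the identifiers of the called genes were compared. Each identifier is made of a block of 6 digits and a running number, 4853 blocks in all; what the blocks stand for is not given in the sources used here. Among 14823 pairs of tested genes whose identifiers follow each other within a block, 92 pairs held 2 risers, 60 held 2 fallers and 83 held 1 of each. The gene listed after a riser was itself a riser in 11.6% of 795 cases and a faller in 4.91%, beside 4.96% and 5.48% of all tested genes. The gene listed after a faller was a faller in 7.12% of 843 cases. Reads from nearly identical copies may be split or counted for either, and the labels do not tell how they were handled, so neighbours of this kind are uncertain.

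Runs of at least 3 risers in a row numbered 12, and runs of at least 3 fallers 1. The longest runs, 2 in number, held 4 risers each. In one of them the genes went from 9.24, 81.2, 0.157 and 38.9 TPM in control to 66.3, 165.7, 4.74 and 105.2 TPM at 2 h, as means of 3 libraries. In the other, which had the larger changes, they went from 0, 0, 10.3 and 32.2 TPM in control to 171.3, 913.2, 848.2 and 2217 TPM at 2 h. The summed level of this run, followed further after its values were seen, was 27.8, 34.7 and 64.8 TPM in control libraries 31, 32 and 33 and 6930, 3444 and 2077 TPM in libraries 1, 2 and 3 of 2 h. In the roots this run was at 739.6 to 2077 TPM in control and at 154.3 to 1066 TPM at 2 h, so it did not stand higher at 2 h there. Leaving out control library 31 left 45 rising and 22 falling pairs, and leaving out treated library 3 left 56 and 16. The falling pairs were 32 when treated library 2 was left out and 29 when control library 33 was.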

How the data were processed

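For each library, the authors deposited the TPM of 34445 genes. The tools in the submitters' processing notes are RSEM, HISAT2, fastp, StringTie, edgeR and DESeq2, with neither version nor role. No genome build was given in the sources used here. TPM values show shares of the RNA pool, so a rise in some genes lowers the others.

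From the TPM, log2(TPM + 1) was tested with limma 3.58.1 in R 4.3.3 (mean-variance trend, Benjamini-Hochberg adjustment over all tested genes, threshold 0.05). A gene was tested if 3 or more of the fitted libraries had it at 1 TPM or above. The 15 shoot libraries, the 15 root libraries and all 30 libraries were fitted separately. The 95% intervals use the limma SE and 10 residual degrees of freedom. The main fits of shoot, root and all libraries were tested on simulated data with a spread drawn independently for each library. The settings below and a pairing of shoot and root libraries were not part of that simulation. Other settings tried were no filter, a filter of 5 TPM, a pseudocount of 0.1, quantile and median-ratio scaling, no trend, library weights, fewer libraries, a bias limit of 2 for part-biased genes, the library number as a block, and each library left out in turn. Fits that share no library were added after seeing the data. Lists for naming genes by function could not be applied, since identifiers come without names.

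Shoot and root libraries share numbers in their titles. Deviations from the group means correlated in all 15 pairs (r of 0.107 to 0.381), and each library correlated best with its own number, so the numbers were taken to pair the libraries. The test of the shoot change minus the root change did not use this pairing, except in the setting with the library number as a block.

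Named genes were the largest rise and fall on the log2 scale and in mean TPM among 1949 genes called at 2 h, without overlap, averaging 10 TPM or more in the higher group and reaching 1 TPM in every library of the lower. The comparison, the gene groups and the tests were chosen with earlier results of these data known. Figures were drawn with matplotlib 3.10.9.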

Additional observations from a re-analysis of the deposited data

Results flagged for a closer look

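The 2 h response differed between shoots and roots for 1950 genes by the direct test of the difference (limma over all 30 libraries). Among the genes given by identifier, the shoot change minus the root change was 5.10 for Glyur002157s00034198, 6.85 for Glyur000476s00022369 and -5.27 for Glyur000742s00025064 on the log2(TPM + 1) scale, each past the same test. Groups of 3 libraries are too small to be searched for outlying samples.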

How the results depend on the processing

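The 4 genes given by identifier kept their direction and their call at 2 h in shoots under all 14 other settings run, with adjusted p of at most 0.005123. With library weights 3900 genes were called, 2273 of them lower, with 474 of these also lower in roots, 3661 differing between the parts and 53 root-biased genes higher. With only the 6 libraries compared 1443 were called, 764 higher and 679 lower, and 124 and 79 were shared with roots. Fits that share no library, chosen after seeing the data, gave 517 and 495 genes called again at 24 h. Quantile normalization gave 57 root-biased genes higher, median-ratio rescaling 158 shoot-biased genes lower, and a bias limit of 2 gave 84 and 410, from larger groups. The cause was not tested. Leaving out each library in turn gave 1279 to 2508 calls, 698 to 1152 higher and 581 to 1356 lower. It gave 515 to 755 risers and 480 to 987 fallers called again at 24 h, 176 to 241 and 131 to 234 shared with roots, 1204 to 2199 differing between the parts, 14 to 40 root-biased genes higher and 142 to 245 shoot-biased genes lower. With the library number as a replicate block 2261 genes differed between the parts, and the block changed no call of the 4 genes. The uncalled root difference of Glyur000476s00022369 turned to 0.036 with median-ratio rescaling, 0.83 with library weights, and 1.00, 0.11 and 0.64 without root library 2 of 2 h and root control libraries 31 and 33; leaving out single root libraries gave -1.07 to 1.00. With no read numbers, the limit set by depth is unknown.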
